A study of Mus musculus with 36 samples.

Results

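The 8 genes described here are goblet cell mucus genes: Muc5ac, Muc5b, Clca3, Slc26a4, Agr2, Fer1l6, Spdef and Foxa3. They were taken by symbol, and all 8 had a row in both count tables, among 18120 rows for female mice and 18295 for male mice. RNA-seq had been run on the left lung of wild-type C57BL/6 mice, 8 weeks old at the first dose, with 3 mice per sex in each of 6 treatment groups. The groups received saline, MC252 crude oil, the dispersant Corexit 9500, the dispersant Corexit 9527, 9500+oil or 9527+oil, the 5 treatments each as a 0.1 dilution of a saline-accommodated fraction. Doses were given on days 0, 7 and 13 and lungs were taken on day 14. Female and male mice were deposited in separate tables, each with mice numbered 1 to 18, so sex and any difference in handling between the tables cannot be told apart, and each comparison was first made within a sex. The question for these genes was which treatment moved them away from saline, and whether the sexes differed.

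Goblet cells are the mucus-secreting cells of the airway lining, and they are scarce in the lungs of unchallenged mice. Type 2 cytokines such as interleukin-13, acting through STAT6, turn secretory airway cells towards this fate, with the transcription factors SPDEF and FOXA3 among the regulators, and the cells then make the gel-forming mucin MUC5AC and the secreted protein CLCA1, long known in the mouse as gob5. MUC5B is the gel-forming mucin that mouse airways also make at rest. The row named Clca3 is gob5, whose current symbol is Clca1. In whole lung, more goblet cells and more RNA per goblet cell cannot be told apart.

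Library totals ran from 17501180 to 30011557 counts in female mice and from 17703655 to 29685060 in male mice. Mitochondrial transcripts took 5.27 to 11.3% of the counts in 32 libraries and 20.7 to 45.1% in 4 female libraries, which were saline mouse 3, oil mouse 6, 9527 mouse 11 and 9500+oil mouse 14. Levels are given as CPM, the counts per 1000000 of a library total rescaled by the trimmed mean of M-values (TMM) over the mice of 1 sex. No pair of libraries matched within counting noise, since the lowest chi-square per gene was 11.4 among 153 female pairs and 12.5 among 153 male pairs. Nothing in the labels says whether mice shared cages, so p-values measure the spread between these mice.

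Muc5ac and Muc5b are neighbors on chromosome 7 of GRCm38, at chr7:141788972-141819231 and chr7:141839070-141873084 on the plus strand. Clca3 lies at chr3:145003817-145032776 on the minus strand, in a cluster of related Clca genes. Slc26a4 at chr12:31519827-31559969 (minus strand) and Agr2 at chr12:35992907-36004087 (plus strand) share chromosome 12. Spdef is at chr17:27714352-27728955, Foxa3 at chr7:19013284-19023538 (both minus strand) and Fer1l6 at chr15:58510048-58665092 (plus strand). All 8 are protein-coding. Values count reads over each gene's transcripts, and reads shared between Clca paralogs, or between Muc5ac and Muc5b, may have been divided between them by the quantifier.

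Slc26a4 and Agr2 were members whose levels moved with Clca3 and whose promoters were among the RefSeq windows (GRCm38.p6) used here, so the 250 bases before their RefSeq start sites are shown. RefSeq and GENCODE, the source of the gene positions above, place these starts at different bases, and the Agr2 window runs past the GENCODE start of the gene. Both strands were searched for TTCNNNNGAA (the STAT6 pattern), TGTTTAC (forkhead factors such as FOXA2 and FOXA3), CCGGAT (SPDEF) and TATAAA (the TATA box), and capitals mark a match.
Slc26a4, chr12:31559985-31560234, minus strand: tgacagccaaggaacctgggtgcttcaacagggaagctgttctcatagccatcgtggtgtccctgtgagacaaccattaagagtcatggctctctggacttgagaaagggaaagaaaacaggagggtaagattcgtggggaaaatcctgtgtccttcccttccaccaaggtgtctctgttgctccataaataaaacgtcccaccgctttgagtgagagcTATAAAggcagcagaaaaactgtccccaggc
Agr2, chr12:35992675-35992924, plus strand: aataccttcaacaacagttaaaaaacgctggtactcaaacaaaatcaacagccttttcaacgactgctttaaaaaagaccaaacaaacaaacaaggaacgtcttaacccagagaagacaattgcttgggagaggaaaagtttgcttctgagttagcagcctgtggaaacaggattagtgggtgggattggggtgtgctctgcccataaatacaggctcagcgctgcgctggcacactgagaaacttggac
The Slc26a4 window held 1 TATAAA and none of the other patterns, and the Agr2 window held 0 matches to the 4 patterns. Of 32851 promoter windows of this length, 12.4% held TATAAA, 5.9% the STAT6 pattern, 3.2% the forkhead pattern and 4.9% the SPDEF pattern. The absence of a match says only that these letters are not in the window.

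Muc5b and Clca3 were the most abundant of the 8 on a scale corrected for exon length. The median level over 18 mice was 19.2 CPM per kilobase for Muc5b and 36.1 for Clca3 in female mice, and 22.6 and 7.43 in male mice. Agr2 stood at 3.93 and 1.87 CPM per kilobase in female and male mice, Muc5ac at 1.59 and 1.14, and Slc26a4 at 1.01 and 1.97. Spdef, at 0.647 and 0.873, Fer1l6, at 0.484 and 0.283, and Foxa3, at 0.220 and 0.192, were lowest.

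Clca3, which encodes a secreted protein of the mucus granule, had the widest range of the 8 in both sexes. Male saline mice had 14.4, 12.9 and 20 CPM of Clca3. Male mice given 9527 had 86.3, 350 and 242 CPM, and those given 9500 had 51.1, 241 and 82.5 CPM. Every male mouse on either dispersant alone was above every male saline mouse. In the male oil group 1 mouse had 646 CPM, the highest of all male mice, and the other 2 had 30.5 and 10.6. Male 9500+oil mice, at 25.7, 12.4 and 22.7 CPM, and 9527+oil mice, at 4.52, 15.1 and 133, overlapped saline.

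Clca3 in female mice already differed 9.95-fold within the saline group, at 61.6, 612 and 503 CPM. Female 9527 mice had 824, 565 and 308 CPM and female 9500 mice 465, 205 and 135 CPM. Only the highest of these 6 values lay above the saline range. The oil group had 49.6, 176 and 137 CPM. The 9500+oil group had 70.9, 125 and 15.7 CPM and the 9527+oil group 33.2, 15.2 and 71.7. The lowest female values were thus in the mixtures, although each mixture group reached into the range of saline mouse 1.

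Muc5ac, the inducible gel-forming mucin, was steady in male saline mice, at 5.67, 6.24 and 6.64 CPM. Male 9527 mice had 17.7, 62.0 and 34.2 CPM, male 9500 mice 13.0, 52.2 and 17.1, and male oil mice 91.3, 12.9 and 9.71. The male mixtures had 11.6, 10.9 and 10.8 CPM for 9500+oil and 9.61, 7.48 and 23.1 for 9527+oil. Every treated male mouse was above every male saline mouse. Female saline mice had 9.13, 49.3 and 220 CPM, the last in mouse 3, the library with the highest mitochondrial share, which had 108 CPM when its raw total was used instead. Female oil mice had 8.11, 18.5 and 8.69 CPM, 9500 mice 30.6, 35.3 and 27.3, and 9527 mice 73.0, 132 and 35.1. Female mixtures were tight, at 9.82, 12.7 and 15.6 CPM for 9500+oil and 10.7, 12.8 and 13.4 for 9527+oil. Only saline mouse 1 was as low as the female mixtures among the saline mice.

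Muc5b, the mucin present at rest, varied least among the 6 genes with more than a few CPM. Male saline mice had 229, 282 and 289 CPM, 9527 mice 304, 613 and 478, and 9500 mice 288, 741 and 489. Male oil mice had 668, 327 and 291 CPM. Male 9500+oil mice had 295, 350 and 412 CPM and 9527+oil mice 294, 378 and 581. These mixture mice were above every saline mouse, as were the 9527 and oil mice but not the lowest 9500 mouse. Of all genes tested, 10.7% had every male 9527 mouse above every saline mouse. The share was not computed for oil or the mixtures. In female mice Muc5b ran from 179 to 520 CPM over all 18 animals, and no treated group stood apart from saline, whose mice had 197, 428 and 262 CPM.

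Slc26a4 encodes pendrin, an anion exchanger of the apical membrane. Male saline mice had 5.97, 4.09 and 3.93 CPM, and male 9527 mice had 15.2, 60.8 and 17.9. Female saline mice had 2.43, 14.1 and 9.14 CPM, and female 9527 mice had 74.9, 21.6 and 13.1. Only 1 female 9527 mouse lay within the saline range. Male 9500 mice had 13.5, 11.6 and 3.83 CPM and female 9500 mice 34.5, 5.72 and 15.5. Male oil mice had 40.3, 8.43 and 7.61 CPM and female oil mice 3.61, 2.70 and 2.41. Oil mice were therefore all above saline in males and at the lower end of saline in females. In the mixtures Slc26a4 was low throughout, at 3.54, 3.43 and 3.83 CPM (9500+oil) and 3.13, 6.27 and 3.56 (9527+oil) in males. Female mixture mice had 2.63, 2.38 and 2.33 CPM for 9500+oil and 2.14, 1.5 and 1.78 for 9527+oil. All 3 female 9527+oil mice were below every female saline mouse. The shares of all genes with this pattern, and with the male oil pattern, were not computed.

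Agr2 encodes a disulfide isomerase of the endoplasmic reticulum that folds mucins. Male saline mice had 2.34, 1.99 and 2.12 CPM, 9500 mice 2.50, 7.82 and 4.44, and 9527 mice 5.46, 15.1 and 3.83. Male oil mice had 8.18, 2.12 and 1.12 CPM, with mouse 4 again the high one. Female saline mice had 2.76, 16.3 and 10.9 CPM, 9527 mice 21.3, 7.98 and 8.00, and 9527+oil mice 1.75, 1.92 and 2.90. Fer1l6, a member of the ferlin family of membrane proteins, had a similar pattern. Its levels were 2.63, 2.31 and 1.17 CPM in male saline mice, 5.61, 23.0 and 8.43 with 9527, and 0.957, 2.25 and 5.16 with 9527+oil. In female mice Fer1l6 had 2.07, 23.6 and 34.8 CPM with saline, 29.4, 26.7 and 8.27 with 9527, and 1.59, 1.45 and 2.20 with 9527+oil.

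Of the transcription factors, Foxa3 was near the floor of the assay and Spdef was low. In male mice the median of Spdef was 2.01 CPM, beside 2.28 for Fer1l6 and 2.42 for Agr2. Spdef ran from 1.14 to 4.27 CPM in male mice (23 to 84 counts) and from 0 to 4.06 CPM in female mice (0 to 131 counts). Foxa3 ran from 0 to 1.63 CPM in male mice and from 0 to 1.76 CPM in female mice, with at most 32 and 59 counts. Male 9527 mice had 1.55, 3.46 and 2.02 CPM of Spdef, against 1.14, 3.62 and 1.85 in saline mice, so no separation was seen. Spdef had 0.727 CPM or less in the 4 mitochondria-rich female libraries and Foxa3 0.132 CPM or less. Both genes were thus low in the libraries of high mitochondrial share, whose part in the female spread was not tested. Foxa3 failed the filter on low counts in all 5 male comparisons with saline.

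**Figure D1:**
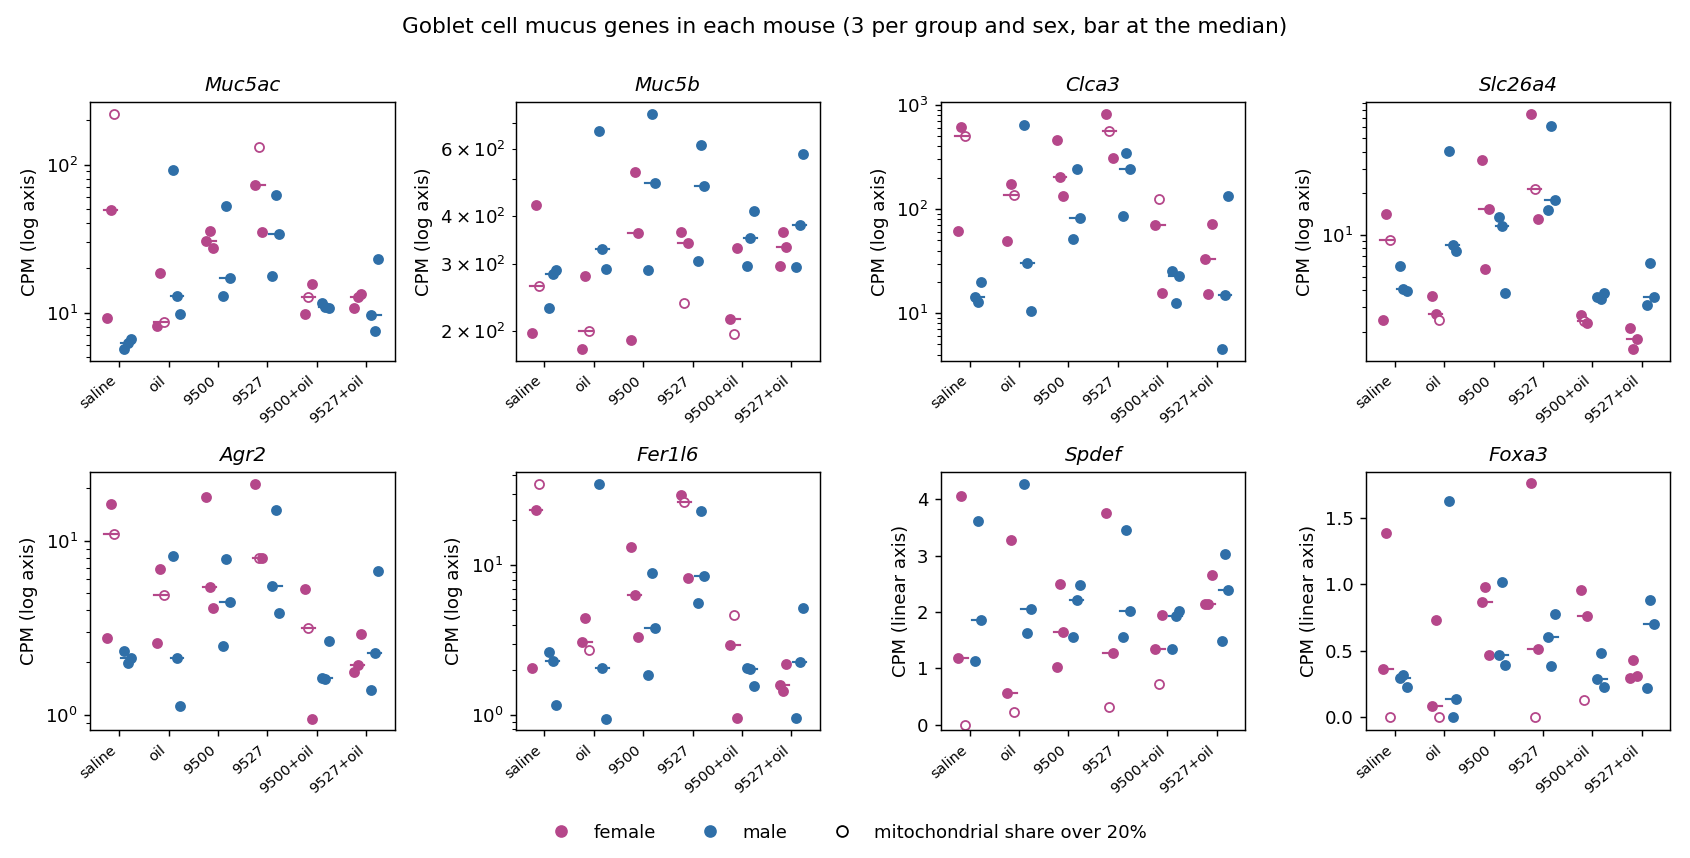
Level of each gene in each mouse in CPM, by treatment, for female (pink) and male (blue) mice. Bars are group medians, open circles are the 4 libraries with over 20% mitochondrial counts, and the last 2 panels have linear axes because they hold values of 0. Male saline mice cluster tightly for Muc5ac and Clca3 while female saline mice spread over 24.1-fold and 9.95-fold.

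Clca3 was the member that rose past the threshold against saline, in male mice given 9527. Its log2 fold change was 3.84 (SE 0.47, n = 3 per group), a 14.3-fold difference, with an adjusted p of 0.0374 by edgeR's quasi-likelihood test with Benjamini-Hochberg adjustment over 14919 genes. That was 1 of 7 members tested, where 0.114% of all genes passed. Muc5ac was 6.13-fold higher (log2 2.62, SE 0.40, edgeR adjusted p = 0.0558) and Slc26a4 6.72-fold higher (log2 2.75, SE 0.53, edgeR adjusted p = 0.0769), and neither passed. Fer1l6 had a log2 difference of 2.60 (SE 0.55, edgeR adjusted p = 0.106), Agr2 1.92 (SE 0.49, adjusted p = 0.155), Muc5b 0.80 (SE 0.23, adjusted p = 0.178) and Spdef 0.09 (SE 0.49). At an unadjusted p under 0.05, 6 of the 7 were higher, beside 13.7% of all genes in either direction. Leaving out 9527 mouse 11 lowered the log2 difference to 1.83 for Slc26a4, 1.79 for Fer1l6 and 1.11 for Agr2. The same 6, all but Spdef, had every 9527 mouse above every saline mouse, beside 10.7% of genes. The median log2 difference was 2.60 over the members and -0.01 over all genes tested.

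The call for Clca3 in male 9527 mice depended on the design. It was lost when any 1 of the 3 saline mice or 9527 mouse 11 was left out, with log2 fold changes between 3.38 and 4.06 and edgeR adjusted p from 0.051 to 0.219, and with all 6 groups in 1 fit (adjusted p = 0.142), where Slc26a4 passed in its place (adjusted p = 0.0457). Voom with quality weights gave Clca3 a log2 fold change of 3.13. DESeq2 called 6 members in this comparison, each higher with 9527.

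In male mice given 9500 alone, none of the 7 members tested passed adjustment, beside 0.00662% of genes, although 6 were higher at an unadjusted p under 0.05, beside 6.35% of genes. Clca3 was 7.86-fold higher (log2 2.97, SE 0.52, edgeR adjusted p = 0.609) and Muc5ac 4.42-fold higher (log2 2.14, SE 0.48, edgeR adjusted p = 0.617). Muc5ac, Clca3 and Agr2 had every 9500 mouse above every saline mouse, as did 6.39% of genes. Without male mouse 8, Clca3 had a log2 difference of 2.08, Muc5ac 1.29, Agr2 0.69, Muc5b 0.54 and Fer1l6 0.48. DESeq2 called Clca3 (adjusted p = 0.00993) and voom called none.

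In male mice given oil, 4 of 7 members were higher at an unadjusted p under 0.05, beside 8.21% of genes, and none passed adjustment by edgeR, DESeq2 or voom, beside 0.00671% of genes by edgeR. The values rested on mouse 4. Clca3 had a log2 difference of 3.85 (SE 1.32) with it and 0.37 without it, and Muc5ac 2.61 (SE 0.80) and 0.87.

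The male mixtures were closer to saline. With 9500+oil, 2 of 7 members were higher at an unadjusted p under 0.05, beside 9.22% of genes, and none passed adjustment in edgeR or voom, where 0% of genes passed in edgeR. Those were Muc5ac, with a log2 difference of 0.84 (SE 0.14, edgeR adjusted p = 0.506), and Muc5b, with 0.40 (SE 0.14). DESeq2 called Muc5ac (adjusted p = 0.0157). With 9527+oil, Muc5ac (log2 1.12, SE 0.39) and Muc5b (log2 0.64, SE 0.23) were again the 2 members at an unadjusted p under 0.05, beside 5.54% of genes. None passed adjustment in any of the 3 tools, beside 0.00669% of genes in edgeR. Clca3 had a log2 difference of 1.68 (SE 0.98) there, with 133 CPM in mouse 18. Without mouse 18 the log2 difference was 0.47 for Muc5ac and 0.34 for Muc5b.

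In female mice no member passed adjustment on any treatment, in either direction. This held for edgeR, DESeq2 and voom in all 5 female comparisons, and 0% of all genes passed in each by edgeR. The comparisons share the same 3 saline mice, which differed widely from each other. At an unadjusted p under 0.05, 0 members differed with 9500 (0.364% of genes) and 0 with 9527 (0.267% of genes). Slc26a4 with 9527 had a log2 difference of 2.09 (SE 0.91, edgeR adjusted p = 1).

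With oil, Muc5ac (log2 -3.11, SE 1.16) and Fer1l6 (log2 -2.66, SE 0.99) were lower at an unadjusted p under 0.05, beside 0.108% of genes. With 9500+oil, 4 members were lower at that level, beside 0.155% of genes. These were Muc5ac (log2 -3, SE 1.11), Clca3 (log2 -2.56, SE 1.05), Slc26a4 (log2 -1.86, SE 0.72) and Fer1l6 (log2 -2.93, SE 1.11). With 9527+oil, 5 were lower, beside 1.1% of genes. They were Fer1l6 (log2 -3.54, SE 1.00), Clca3 (log2 -3.30, SE 1.00), Muc5ac (log2 -2.93, SE 1.09), Slc26a4 (log2 -2.25, SE 0.69) and Agr2 (log2 -2.20, SE 0.70), all at an edgeR adjusted p of 0.914. Without the mitochondria-rich libraries, which leaves 2 female saline mice, 4 of these 5 were still at an unadjusted p under 0.05, with Clca3 at -3.07 and Fer1l6 at -2.88, while Muc5ac moved to -1.25. The same omission took Muc5ac to -1.13 and Fer1l6 to -1.77 with oil, and Muc5ac to -1.21 with 9500+oil. Leaving out saline mouse 3 alone gave -1.31 for Muc5ac and -1.92 for Fer1l6 with oil, and -1.2 and -2.19 with 9500+oil. Voom with quality weights gave -1.27, -0.74 and -0.84 for Muc5ac and -1.22, -2.11 and -2.16 for Fer1l6 with oil, 9500+oil and 9527+oil, and -2.52 for Clca3 with 9527+oil. Clca3 was at -3.18 with 9500+oil without mouse 14 and at -4.03 with 9527+oil without mouse 18.

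**Figure D2:**
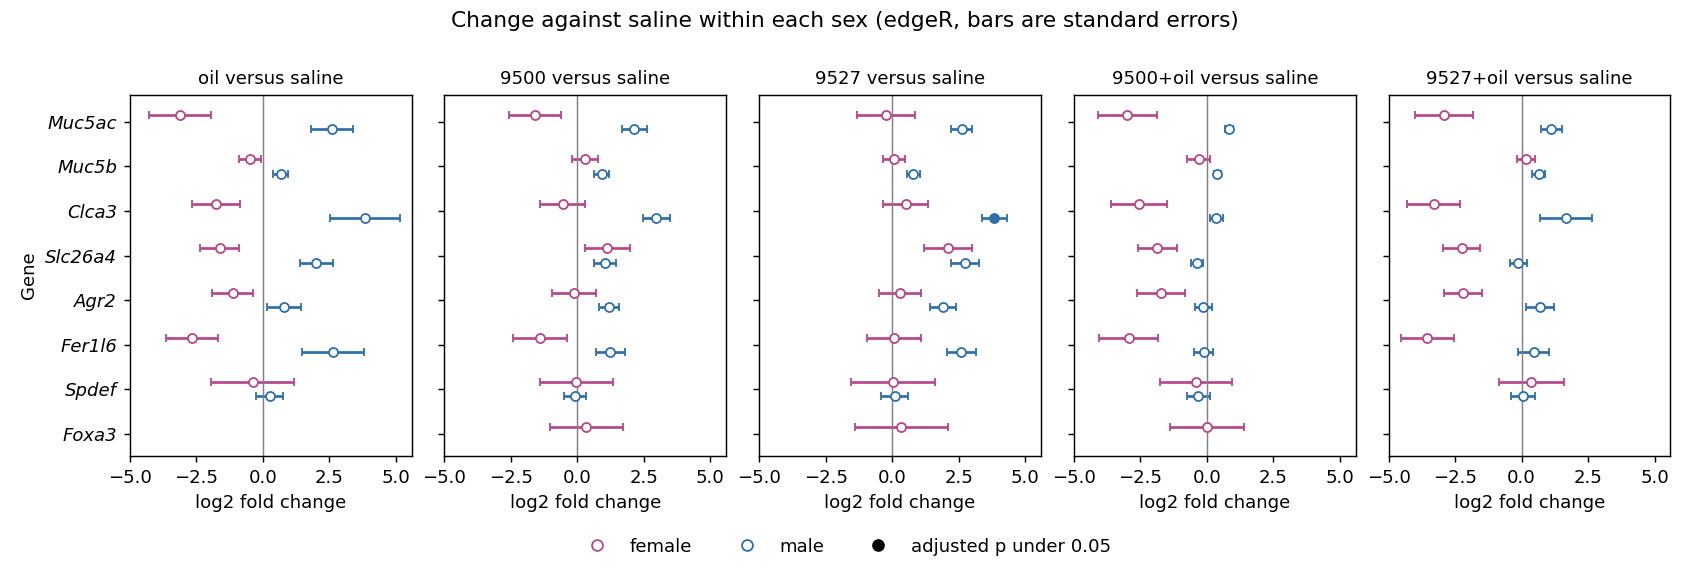
Log2 fold change against saline (x axis) of each gene (y axis) for the 5 treatments, in female (pink) and male (blue) mice. Bars are standard errors, filled points have an edgeR adjusted p under 0.05, and genes that failed the filter have no point. Clca3 in male 9527 mice, at 3.84, is the filled point, and female values for oil and both mixtures lie mostly left of 0.

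With both sexes in 1 fit and sex as a term, no member passed adjustment in any of the 5 comparisons with saline. For oil, 0 members had an unadjusted p under 0.05 (0.442% of genes, with 0% past adjustment), and for 9500 also 0 (2.3% of genes, with 0% past adjustment). For 9527, Slc26a4 was 5.32-fold higher (log2 2.41, SE 0.57, edgeR adjusted p = 0.438) and Clca3 4.50-fold higher (log2 2.17, SE 0.81, edgeR adjusted p = 1). Clca3 had 0.89 when sex was not a term (unadjusted p = 0.393 by edgeR). With it, these were the 2 members at an unadjusted p under 0.05, beside 2.86% of genes, and 0.0326% of genes passed adjustment. Slc26a4 passed with DESeq2 (adjusted p = 0.00545), with voom (0.0288) and without the mitochondria-rich libraries in edgeR (0.0464). Slc26a4 was also the 1 member lower at an unadjusted p under 0.05 with 9500+oil (log2 -1.08, SE 0.41, beside 0.418% of genes) and with 9527+oil (log2 -1.17, SE 0.51, beside 2.99% of genes), where 0% of genes passed adjustment. Apart from Slc26a4 with 9527, DESeq2 and voom called no member in these 5 fits.

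The difference between the sexes was tested as an interaction, positive where the change from saline was higher in male mice. No member passed adjustment for any treatment in edgeR, DESeq2 or voom, and 0% of all genes did in edgeR. All members at an unadjusted p under 0.05 had positive values. They numbered 4 for oil (1.65% of genes), 2 for 9500 (0.726%), 1 for 9527 (0.352%), 3 for 9500+oil (0.509%) and 5 for 9527+oil (2.39%). Clca3 was among them for every treatment, with log2 differences of 5.56 (SE 1.87) for oil, 3.54 (SE 1.14) for 9500, 3.32 (SE 1.06) for 9527, 2.82 (SE 1.13) for 9500+oil and 4.97 (SE 1.64) for 9527+oil. These 5 values share the same saline mice, with 61.6 to 612 CPM of Clca3 in the female ones and 12.9 to 20 CPM in the male ones. Without male oil mouse 4 the value for oil was 2.08 (2.61 with the mouse number as a replicate block), and without male mouse 18 the value for 9527+oil was 2.59. Without male 9500 mouse 8 the value for 9500 was 2.64, and without female 9500 mouse 7 it was 4.19. Leaving out female mouse 14 gave 3.53 for 9500+oil, and leaving out female mouse 18 gave 5.7 for 9527+oil (3.6 with the block). Voom gave 3.81 for oil, 2.69 for 9500, 2.17 for 9527 and 3.91 for 9527+oil.

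A test for any difference among the 6 groups called no member in either sex by edgeR. The lowest adjusted p was 0.282 in female mice and 0.0742 in male mice, both for Slc26a4. In female mice 5 of 8 members had an unadjusted p under 0.05, beside 1.35% of genes, and 0.0129% of genes passed adjustment. In male mice 4 of 8 had, beside 10.4% of genes, and 0.135% passed adjustment. DESeq2 called 4 members in female mice and 1 in male mice, and voom called 3 in female mice and none in male mice.

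Because group means of Clca3, Slc26a4 and Muc5ac were lower in each mixture than with its dispersant alone, in both sexes, a comparison chosen after the values were seen set mixture against dispersant in both sexes together. It does not use the saline mice. Since the same mice and genes prompted the comparison, its p-values describe the size of these differences against their spread and are not independent support for them. Slc26a4 with 9527+oil was at 0.0838 times its level with 9527, a log2 difference of -3.58 (SE 0.56, n = 6 per group, edgeR adjusted p = 0.0259). Slc26a4 and Fer1l6 were the 2 members with every 9527+oil mouse below every 9527 mouse within each sex, beside 3.37% of genes. Slc26a4 was at 13.1 to 74.9 CPM with 9527 against 1.5 to 2.14 with 9527+oil in female mice and 15.2 to 60.8 against 3.13 to 6.27 in male mice. Fer1l6 was also lower (log2 -2.86, SE 0.55, edgeR adjusted p = 0.0436), at 8.27 to 29.4 CPM with 9527 against 1.45 to 2.20 with 9527+oil in female mice and 5.61 to 23.0 against 0.957 to 5.16 in male mice. These 2 of 8 members passed adjustment, beside 0.559% of genes, and 5 had an unadjusted p under 0.05, beside 14.1% of genes.

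Muc5ac had a log2 difference of -2.09 (SE 0.44, edgeR adjusted p = 0.0723) between 9527+oil and 9527, Clca3 -2.98 (SE 0.80, adjusted p = 0.167) and Agr2 -1.86 (SE 0.51, adjusted p = 0.175). In male mice the levels overlapped for Clca3, which reached 133 CPM in 9527+oil mouse 18 against a lowest 9527 value of 86.3, for Muc5ac, at up to 23.1 against a lowest value of 17.7, and for Agr2, at up to 6.69 against a lowest value of 3.83. Without male 9527+oil mouse 18, Clca3 had a log2 difference of -4.12 and was the 1 member called (edgeR adjusted p = 0.0491). Muc5b had -0.03 (SE 0.21), Spdef 0.16 (SE 0.44) and Foxa3 -0.61 (SE 0.64). Without female 9527 mouse 11, the mitochondria-rich library of these groups, 5 members passed, and leaving out any 1 of 7 other mice left none. The differences for Slc26a4 stayed between -3.82 and -3.02 in all these fits.

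Between 9500+oil and 9500 alone, 5 members were lower at an unadjusted p under 0.05, beside 1.95% of genes, and 0 passed adjustment in edgeR or voom, as did 0% of genes in edgeR. They were Slc26a4 (log2 -2.16, SE 0.46), Clca3 (log2 -2.27, SE 0.52), Muc5ac (log2 -1.30, SE 0.29), Agr2 (log2 -1.43, SE 0.46) and Fer1l6 (log2 -1.39, SE 0.45), each at an edgeR adjusted p of 1. DESeq2 called Slc26a4, Clca3 and Muc5ac here. Voom with quality weights gave Slc26a4 a log2 difference of -1.56.

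**Figure D3:**
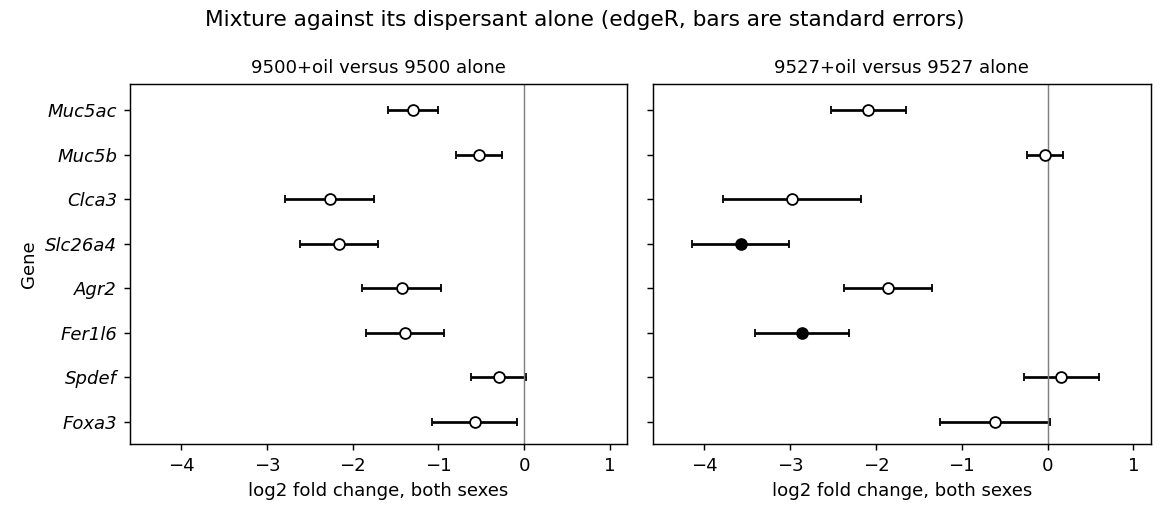
Log2 fold change (x axis) of each gene (y axis) between a mixture and its dispersant alone, both sexes together. Bars are standard errors and filled points have an edgeR adjusted p under 0.05. Slc26a4, at -3.58, and Fer1l6, at -2.86, are the filled points, and Muc5b sits at -0.03 for 9527.

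Across individual mice, Agr2, Fer1l6, Muc5ac and Slc26a4 rose and fell with Clca3 in both sexes, while Muc5b and Foxa3 did so in male mice. Relations with Clca3 were measured within each sex over 18 mice on log2 CPM (14 relations in all, permutation p adjusted by Benjamini-Hochberg). The permutations moved values freely across treatment groups, so a difference between groups that 2 genes share can by itself lower these p-values. No p was computed for r with the group means removed. Agr2 had Pearson r = 0.943 in female mice (rho 0.950, both permutation p adjusted 2.8e-05 and 4.67e-05) and r = 0.905 in male mice (rho 0.901, with the same adjusted p-values). The smallest p the permutations could give was 1e-05 before adjustment. For Fer1l6 r was 0.941 in female mice (rho 0.934) and 0.923 in male mice (rho 0.822), with adjusted permutation p-values up to 0.000117. After leaving out the 2 mice farthest from the median of Clca3, r was 0.934 and 0.883 for Agr2 and 0.945 and 0.890 for Fer1l6. With the mean of each treatment group removed, r was 0.880 and 0.891 for Agr2 and 0.881 and 0.908 for Fer1l6, but 0.530 and 0.903 for Muc5ac and 0.557 and 0.567 for Slc26a4.

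Muc5ac had r = 0.764 (rho 0.787) in female mice and 0.923 (rho 0.897) in male mice. Without the 2 farthest mice r was 0.852 and 0.874. Slc26a4 had r = 0.821 (rho 0.829) in female mice and 0.752 (rho 0.647) in male mice, where it dropped to 0.571 without the 2 farthest. Adjusted permutation p-values for these 4 relations ran from 2.8e-05 to 0.00759. Muc5b followed Clca3 in male mice (r = 0.818, rho 0.719, permutation p adjusted 0.00012 and 0.00192) and not in female mice (r = 0.082, rho 0.187, permutation p adjusted 0.799 and 0.491). The difference between the sexes in r was not tested. Without the 2 farthest mice Muc5b had r = 0.733 in male mice. Spdef had r = -0.186 in female mice (rho 0.032) and 0.464 in male mice (rho 0.370, permutation p adjusted 0.0675 and 0.167), where r was 0.120 without the 2 farthest. Foxa3 had r = 0.032 in female mice (rho 0.231, permutation p adjusted 0.900 and 0.414) and 0.597 in male mice (rho 0.602, permutation p adjusted 0.0114 and 0.0133, and r = 0.528 without the 2 farthest). Without the mitochondria-rich libraries, Foxa3 had r = 0.601 over 14 female mice.

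**Figure D4:**
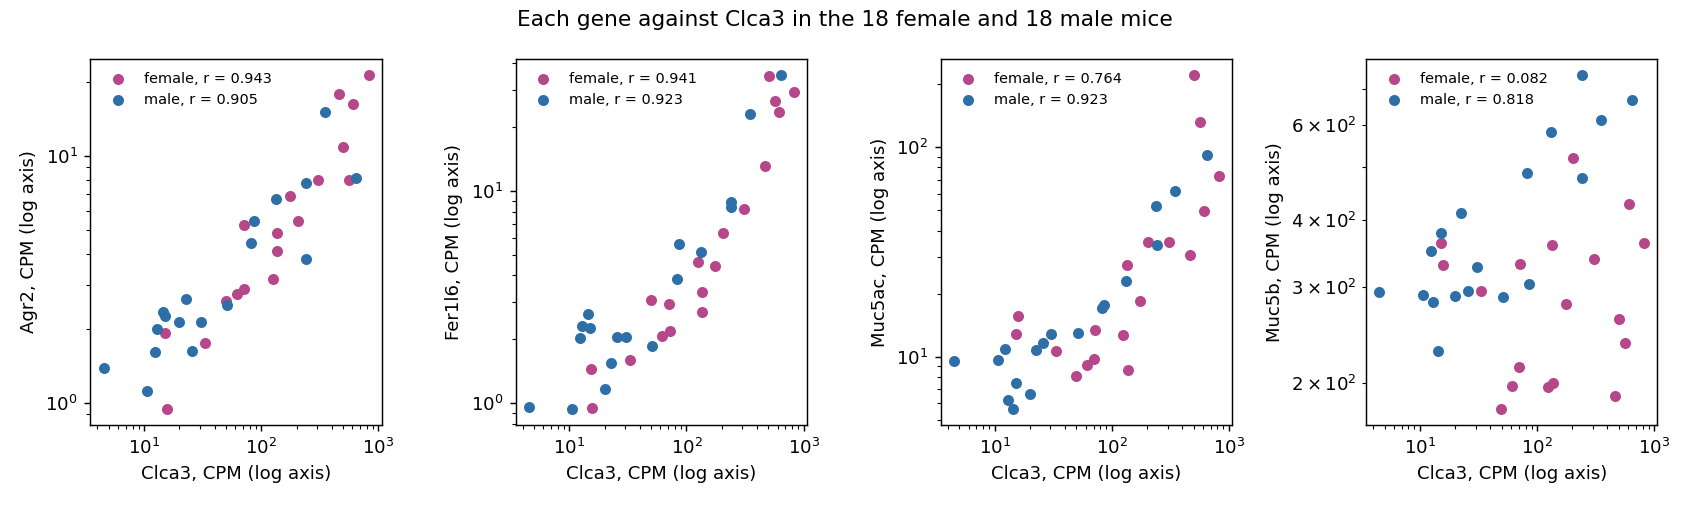
Level of Agr2, Fer1l6, Muc5ac and Muc5b (y axes, CPM, log scale) against Clca3 (x axes, CPM, log scale) in 18 female (pink) and 18 male (blue) mice, 1 point per mouse, with Pearson's r on log2 CPM. Agr2 and Fer1l6 rise with Clca3 in both sexes, with r between 0.905 and 0.943, and Muc5b in female mice does not, at r = 0.082.

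Spread among mice of a group was large for these genes in male mice. The pooled SD of log2 CPM within groups was 1.75 for Clca3, 1.37 for Fer1l6, 0.98 for Muc5ac and 0.93 for Agr2 in male mice, where the median gene had 0.20. In male mice 98.9% of genes had a smaller SD than Clca3 and 86.0% a smaller one than Muc5b. In female mice, where the median gene had 0.70, Clca3 had 1.24 and Muc5b 0.46. There 76.4% of genes had a smaller SD than Clca3, 68.8% than Muc5ac, 65% than Agr2 and 28.5% than Muc5b.

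The genes most like Clca3 over 36 mice, after centering each sex, were Fer1l6 (Pearson r = 0.925), Chil4 (0.915), Retnla (0.915), Agr2 (0.913) and Muc5ac (0.832), out of 15259 genes. Chil4 encodes a chitinase-like protein and Retnla a resistin-like protein, both known targets of type 2 cytokines. Retnla had 29.4, 23.6 and 32.5 CPM in male saline mice and 168, 928 and 288 with 9527, a log2 difference of 4.02 (SE 0.59, edgeR adjusted p = 0.0558). Chil4 had 0.0497, 0.525 and 0.632 CPM in male saline mice and 2.35, 14.3 and 7.50 with 9527 (log2 4.29, SE 0.80, edgeR adjusted p = 0.0763), and some of its reads may be shared with Chil3. Male oil mouse 4, highest for Clca3, also had 677 CPM of Retnla, against 110 and 73.2 in the other 2 oil mice.

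The genes most like Muc5ac were Fer1l6 (r = 0.888), Pla2g4c (0.844), Scin (0.840), Clca3 (0.832) and Chil4 (0.809). Muc5b had weaker partners, led by Fcgbp (0.634), which encodes a mucus protein that binds mucins, then Wdr62 (0.619), Capn9 (0.609), Lingo4 (0.609) and Slc39a14 (0.597). In female and male mice apart, r was 0.472 and 0.844 for Fcgbp, 0.706 and 0.600 for Wdr62, and 0.323 and 0.847 for Capn9. It was 0.785 and 0.418 for Lingo4 and 0.764 and 0.414 for Slc39a14. Capn9 and Lingo4 were near the floor, at up to 2.59 and 0.865 CPM. Fcgbp in male 9527 mice had a log2 difference from saline of 2.11 (SE 0.36, edgeR adjusted p = 0.0619). These likenesses are descriptions over mice that share treatment groups and libraries.

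Other genes of mucus production were read from 8 lists. In male mice given 9527, Muc1, a membrane-bound mucin, rose by 0.81 on the log2 scale (SE 0.09, edgeR adjusted p = 0.033), from 483 ± 28.8 to 847 ± 18.6 CPM (mean ± SD, n = 3 mice each). It was the only gene of the lists called there. At an unadjusted p under 0.05, where 13.7% of all genes stood, 2 of 5 other mucins tested were higher and 0 lower (median log2 difference 0.01), as were 1 and 0 of 16 genes of mucin O-glycosylation (median 0.14). Of 11 genes of mucin folding and granule content 2 were higher and 1 lower (median 0.15), and of 22 genes of granule exocytosis 0 were higher and 1 lower (median -0.01). Of 9 genes of ion and fluid transport 1 was higher (median 0.14), and of 8 epidermal growth factor ligands and receptors 3 were higher and 1 lower (median 0.22). Of 18 goblet fate regulators 2 were higher and 3 lower (median -0.20), and of 11 genes of type 2 cytokines, receptors and targets 6 were higher and 0 lower (median 0.92). Those 6 include Chil4 and Retnla, the targets named above beside Clca3, and cytokines, receptors and targets were not counted apart. List genes that failed the filter on low counts were not tested. The median over all genes tested was -0.01. Chil3, a further chitinase-like target, had 428 ± 77.7 CPM in saline and 812 ± 359 CPM in 9527 male mice (mean ± SD, n = 3 mice each).

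In the test over all 6 male groups Muc1 (edgeR adjusted p = 0.0451) and Ereg (edgeR adjusted p = 0.0293) passed. Ereg encodes epiregulin, a ligand of the epidermal growth factor receptor, and had 0.29 ± 0.076 CPM in saline and 4.65 ± 4.15 in 9527 male mice (mean ± SD, n = 3 mice each). In the fits of both sexes none of the lists held a called gene, by edgeR. The gene with the smallest p in its list was Scnn1a, a sodium channel subunit (log2 0.56, SE 0.19, 9527+oil), Hbegf, a growth factor (0.53, SE 0.23, 9500), Foxa2, a restrainer of goblet fate (0.37, SE 0.15, 9500), Creb3l1 (-0.88, SE 0.48, 9527+oil), Sytl2 (-0.57, SE 0.24, 9500), Gcnt4 (1.25, SE 0.70, 9527), Muc1 (0.62, SE 0.17, 9527) and Chil3 (1.33, SE 0.29, 9527).

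Markers of other cells were checked beside these results. Genes of the thyroid, where Slc26a4 is also used, summed to 4.69 to 9.72 CPM in female and 5.74 to 9.44 CPM in male mice over 5 of 7 and 6 of 7 markers with a row, without Pax8 in either table. Stomach markers, where Muc5ac is used, summed to at most 8.28 CPM, without Gkn1, Gkn2 or Atp4b in either table. Cartilage markers of the large airways (7 of 10 with a row) summed to 10.2 CPM in female saline mouse 3 and to 3.51 to 5.99 CPM in the other 3 mitochondria-rich female libraries, against at most 2.26 CPM in the other 14 female mice and 3.53 CPM in male mice. Club cell markers (12 of 12) summed to 13400 to 31200 CPM in female and 19000 to 31100 CPM in male mice, and ciliated cell markers (14 of 14) to 573 to 904 and 645 to 972 CPM. In male 9527 mice 6 of the 14 ciliated genes were lower at an unadjusted p under 0.05, with a median log2 difference of -0.27, and 2 of 12 club genes were lower, also with a median of -0.27, beside 13.7% of all genes in either direction. In the same comparison 3 of 9 alveolar type 2 genes were higher and 0 lower (median 0.24), and 2 of 7 alveolar type 1 genes were higher and 1 lower (median 0.09). The part of the ciliated and alveolar values in the rise of Clca3 was not tested. Salivary and submucosal gland markers had 2 of 8 genes with a row, Bpifa2 and Aqp5, and Aqp5 is also on the alveolar type 1 list, so their sum cannot be told apart from alveolar RNA. It came to 15.6 to 35.9 CPM in the 4 mitochondria-rich female libraries and to 131 to 237 CPM in the other 14, with 214 to 325 CPM in male mice. Basal markers (6 of 6) summed to 0 CPM in female saline mouse 3 and 0.319 CPM in female 9527 mouse 11, against 3.87 to 10.1 CPM in the other 16 female mice. Squamous markers (4 of 7) summed to 2.81 and 3.3 CPM in those 2 mice and to 8.52 to 17.5 CPM in the other female mice. These 2 mice also had the 2 highest female Muc5ac levels, and the part of library quality in those levels was not tested.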

How the data were processed

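Libraries of poly(A) RNA from the left lung were quantified by the authors with Salmon against GRCm38 transcripts and combined with tximport. Rows of the tables are gene symbols, and how transcripts were joined to genes is not given in the sources used here. The authors deposited 1 table of estimated counts per sex, already whole numbers. 4 rows with repeated names were left out of each table. Tests used edgeR 4.0.16 (TMM, expression filter by group, quasi-likelihood F test, Benjamini-Hochberg) in R 4.3.3, on each treatment with saline within a sex, on both sexes with a sex term, for the sex-by-treatment interaction and over 6 groups. The SE was the log2 fold change divided by the root of F. Log2 CPM used a prior count of 2. Correlations used 100000 permutations over the mice of a sex, not within treatment groups. Lengths and positions came from GENCODE M21. The members and gene lists were chosen with earlier results of these data known. The genes named beside members were the list genes with an edgeR adjusted p under 0.05, the list gene with the smallest p over the 5 fits of both sexes, and the 5 genes most like Muc5ac, Muc5b and Clca3. Alternatives were DESeq2 1.42.0, voom with quality weights in limma 3.58.1, other scalings, filters and models, and leaving out mice. The code of the tests was first run on simulated counts with the same dispersion for all genes. That setting does not match the spread of these members, so it says nothing about how the tests perform on them.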

Additional observations from a re-analysis of the deposited data

How the results depend on the processing

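None of the 60 fold changes of members at an unadjusted p under 0.05 turned direction under any alternative. They had been picked by that p, some in the mixture comparisons chosen after the values were seen. The alternatives refit the same mice, so a turn was unlikely beforehand. Sizes did change, as for Clca3 in male oil mice (log2 3.85, and 0.37 without mouse 4) and Muc5ac in female 9500+oil mice (-3, and -0.74 with voom). The choice of scaling (DESeq2 size factors, or mitochondrial genes left out) changed no call. In male mice given 9527, where edgeR called 1 member, DESeq2 called 6, and both the fit with no filter and the fit with at least 10 counts in every mouse called 2. Leaving out 1 mouse gave 0 to 4 there. DESeq2 called 1 member for male 9500, for male 9500+oil and for 9527 in both sexes, where edgeR called 0. For 9527 in both sexes 1 member was also called with all groups in 1 fit, without the mitochondria-rich libraries and with voom. Over the 6 groups, DESeq2 called 4 and voom 3 members in female mice. In male mice DESeq2 and the stricter filter each called 1, and leaving out 1 mouse gave 0 to 1. For 9527+oil against 9527 alone, with 2 called, DESeq2, voom and the fit without the mitochondria-rich libraries called 5, and leaving out 1 mouse gave 0 to 5. For 9500+oil against 9500 alone DESeq2 called 3. The interaction fits with the mouse number as a replicate block called 0 members, as did the fits without it. Mouse numbers were shared between the sexes but did not pair the mice: 7 of 18 pairs had a correlation of deviations over 0.1, with a range of -0.38 to 0.231. Foxa3, at 0 to 59 counts, was left untested by the filter in all 5 male comparisons with saline.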
